A study of Homo sapiens with 2 samples.

Results

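The genes described here are 10 targets of the hypoxia-inducible factors (HIF) that act in mitophagy, lipid storage and stress adaptation: BNIP3, BNIP3L, FAM162A, DDIT4, HILPDA, ANKRD37, BHLHE40, MXI1, INSIG2 and VLDLR. They were chosen by RefSeq symbol from the 19974 protein-coding genes of chromosomes 1 to 22 and X. For each gene, all peaks that overlapped its span or the 10000 bp on either side were taken. The data were chromatin immunoprecipitation sequencing (ChIP-seq) peaks for acetylation of lysine 5 on histone H4 (H4K5ac). The cells were FaDu, a human line established from a head and neck squamous carcinoma. One library came from cells in normoxia and the other from cells in 1% oxygen for 18 h, and the labels give FADU as the cell line of both. The culture protocol mentions lentiviral knockdown of METTL4, but no label assigns it to either library, and the design text names another histone mark than the sample labels do.

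HIF is a transcription factor whose alpha subunit is destroyed in oxygenated cells and accumulates when oxygen is scarce. It binds short DNA elements with the core ACGTG or GCGTG near its target genes. Several of its targets adjust the cell to low oxygen by removing mitochondria, holding fat in lipid droplets and slowing growth. H4K5ac is an acetylation mark of active promoters and enhancers and is read by bromodomain proteins.

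Each condition had 1 library, so differences between conditions have no replicate check, no test was made and no p-value is given. The normoxia list held 120033 peaks and the hypoxia list 258195, a ratio of 2.15, and the narrowest peaks were 245 and 215 bp wide. Intervals are 95% exact binomial or Poisson intervals and cover counting error only. Of the 6 squamous epithelial marker genes, 5 carried a peak within 1000 bp of a gene end in both lists and TP63 in hypoxia only. Of 6 markers of other cells, COL1A1 and COL1A2 were marked in both, CD3E and PECAM1 in hypoxia only, and PTPRC and ALB in neither. Of all protein-coding genes, 69.3% were marked at a gene end in both lists.

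The promoter sequences below are shown because the hypoxia core letters of these genes fell either between H4K5ac peaks or inside them. They were picked by that outcome. BHLHE40 and MXI1, whose cores lay partly inside and partly outside hypoxia peaks, are not shown. Over all promoters with a peak within 1000 bp, 34.4% of core sites lay outside hypoxia peaks. The sequences are the 250 bases before the annotated start, 5′ to 3′ along the gene, from RefSeq on GRCh38.p14. Capitals mark ACGTG and GCGTG on either strand, so that CACGT and CACGC are the same cores read on the opposite strand. In BNIP3, ANKRD37, DDIT4 and INSIG2 every capitalised core lay outside all hypoxia peaks.
BNIP3, chr10:131981924-131982173, minus strand: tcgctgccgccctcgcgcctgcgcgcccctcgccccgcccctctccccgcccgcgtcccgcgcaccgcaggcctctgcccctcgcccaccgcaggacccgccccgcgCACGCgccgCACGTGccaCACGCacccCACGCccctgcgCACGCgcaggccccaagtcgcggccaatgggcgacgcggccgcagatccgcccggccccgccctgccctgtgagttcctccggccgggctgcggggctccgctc
ANKRD37, chr4:185396591-185396840, plus strand: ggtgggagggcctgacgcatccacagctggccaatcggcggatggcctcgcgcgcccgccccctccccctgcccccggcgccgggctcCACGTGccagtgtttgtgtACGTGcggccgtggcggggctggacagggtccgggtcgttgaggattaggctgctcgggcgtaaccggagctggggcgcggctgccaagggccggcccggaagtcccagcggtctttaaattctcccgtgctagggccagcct
DDIT4, chr10:72273674-72273923, plus strand: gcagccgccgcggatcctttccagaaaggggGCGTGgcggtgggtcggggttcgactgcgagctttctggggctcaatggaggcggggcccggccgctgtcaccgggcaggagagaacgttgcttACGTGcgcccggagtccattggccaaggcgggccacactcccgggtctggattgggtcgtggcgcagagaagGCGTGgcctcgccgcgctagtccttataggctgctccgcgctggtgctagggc
INSIG2, chr2:118088221-118088470, plus strand: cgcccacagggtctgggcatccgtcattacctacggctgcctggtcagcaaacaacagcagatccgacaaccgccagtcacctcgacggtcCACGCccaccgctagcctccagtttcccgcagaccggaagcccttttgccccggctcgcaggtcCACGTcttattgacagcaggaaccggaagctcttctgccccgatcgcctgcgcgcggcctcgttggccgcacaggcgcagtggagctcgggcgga
In FAM162A and VLDLR every capitalised core lay inside a peak in both lists.
FAM162A, chr3:122383932-122384181, plus strand: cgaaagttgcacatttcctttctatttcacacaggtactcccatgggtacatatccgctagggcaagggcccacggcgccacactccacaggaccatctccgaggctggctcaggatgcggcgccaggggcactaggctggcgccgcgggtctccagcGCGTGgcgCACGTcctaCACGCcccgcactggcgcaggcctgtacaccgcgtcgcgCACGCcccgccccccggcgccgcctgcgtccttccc
VLDLR, chr9:2621537-2621786, plus strand: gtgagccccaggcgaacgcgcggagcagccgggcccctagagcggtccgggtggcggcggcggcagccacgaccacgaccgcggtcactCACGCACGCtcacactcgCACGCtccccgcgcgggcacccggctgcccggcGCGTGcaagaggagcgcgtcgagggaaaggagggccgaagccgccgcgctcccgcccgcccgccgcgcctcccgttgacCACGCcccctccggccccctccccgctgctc

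Every strong H4K5ac peak of these genes overlapped a peak of the other list, by at least 1 bp and whatever the strength of that peak. All 10 windows held at least 1 strong peak, defined by the authors' q-value as −log10 q of 10 or more, in each list, which 74.8% of all protein-coding genes did. Every one of the 21 strong normoxia peaks overlapped a hypoxia peak (lower bound 83.9%), close to the 98.5% of the 23516 strong normoxia peaks in the windows of all genes. Every one of the 25 strong hypoxia peaks overlapped a normoxia peak (lower bound 86.3%), against 89.3% of the 35415 strong hypoxia peaks in the windows of all genes. None of the 10 genes therefore had a strong hypoxia peak without a normoxia counterpart, which allows a share of up to 30.8%. Over all genes that share was 15.6%, which lies inside that limit. A counterpart could be weak or overlap little. The strong normoxia peak inside VLDLR (−log10 q 14.1) was overlapped over 18.0% of its width, by a hypoxia peak of 4.50. Strong hypoxia peaks of HILPDA (13.5), BHLHE40 (12.8) and BNIP3L (13.2) had normoxia counterparts of 1.57, 2.96 and 8.56. With strength set at −log10 q of 5 or more the count was 3 of 10, namely FAM162A, BHLHE40 and MXI1, against 60.5% of all genes. No counting interval was computed for this count, so its difference from 60.5% is unresolved.

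The windows of these genes held nearly equal peak numbers in the 2 lists, whereas all genes together had about 2 hypoxia peaks for each normoxia peak. There were 42 normoxia and 46 hypoxia peaks, a ratio of 1.10 (0.705 to 1.71), against 2.04 (2.02 to 2.06) over the windows of all genes. Genes with a strong peak in both lists and a span between the shortest and longest of the 10 (2113 to 79761 bp, 10840 genes) had a ratio of 1.78. Strong peaks alone had a ratio of 1.19 (0.640 to 2.24), against 1.51 over all genes. Within 1000000 bp of each gene, its own window left out, the ratio ran from 1.97 at ANKRD37 to 3.53 at BNIP3. Over the whole lists it was 2.15. The member ratio depended on the window. It was 0.955 (0.499 to 1.82) in the gene spans alone and 1.54 (1.20 to 2.00) with 50000 bp on either side. When peaks were summed over all genes the values were 2.05 and 1.98. With lists of equal length the member ratio was 0.762 (0.466 to 1.24), and this interval includes the 1.000 over all genes. With peaks stitched within 200 bp the member ratio was 1.24 (0.766 to 2.03). No all-gene value was computed for stitched peaks.

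Gene by gene, BNIP3 had 4 normoxia and 6 hypoxia peaks, BNIP3L 2 and 2, and FAM162A 5 and 7. HILPDA had 3 and 3, VLDLR 3 and 3, and INSIG2 5 and 6. The stress and repressor genes had 5 and 3 (DDIT4), 7 and 8 (BHLHE40) and 6 and 5 (MXI1), and ANKRD37 had 2 and 3. Hypoxia peaks were thus more numerous in 5 of 10 genes (18.7 to 81.3%), against 79.0% of all genes, 82.1% of genes with a strong peak in both lists and 79.7% of the genes of like span. The interval includes 79.0% and 79.7%. Fewer hypoxia peaks were found in DDIT4 and MXI1 (2 of 10; 2.52 to 55.6%), against 5.86% of all genes, which lies inside that interval. In both of these genes 2 neighbouring normoxia peaks overlapped the same hypoxia peak. In the 5000 bp just inside the window edge there were 3 normoxia and 6 hypoxia peaks, and in the 5000 bp just outside it 8 and 15.

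**Figure D1:**
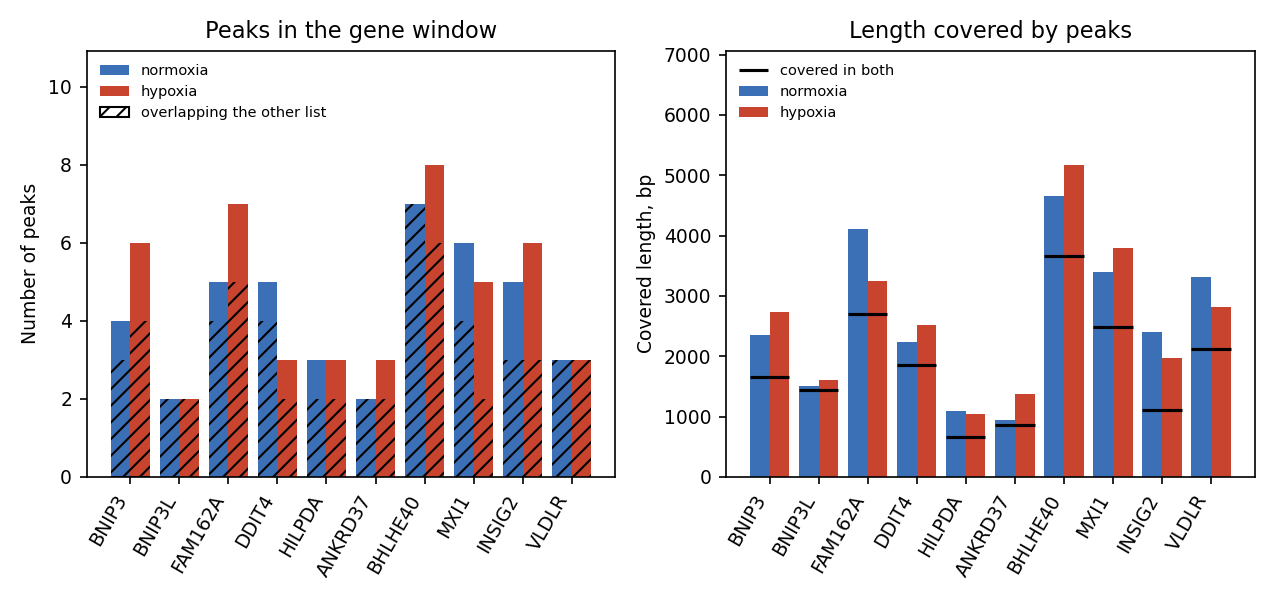
Left, number of peaks in each gene window (span and 10000 bp on either side) in normoxia (blue) and hypoxia (red), hatched where a peak overlaps the other list; right, length in bp that the peaks cover, with a black line at the length covered in both. BHLHE40 has the most peaks (7 and 8), and every normoxia peak of BNIP3L, ANKRD37, BHLHE40 and VLDLR overlaps a hypoxia peak.

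The length covered by peaks was also nearly the same, at 26027 bp in normoxia and 26287 bp in hypoxia, of which 18551 bp were common. Hypoxia peaks covered less than normoxia peaks in 4 of the 10 genes (FAM162A, HILPDA, INSIG2 and VLDLR; 12.2 to 73.8%). Among genes with a normoxia peak the share was 20.0%, which lies inside that interval. The length covered in both lists made up a median of 55.8% of the length covered in either, from 33.8% in INSIG2 to 85.2% in BNIP3L. The median was 41.5% over all genes and 51.9% over the genes of like span. Of the normoxia peaks 81.0% (34 of 42; 65.9 to 91.4%) overlapped a hypoxia peak, against 71.1% over all genes. Of the hypoxia peaks 67.4% (31 of 46; 52.0 to 80.5%) overlapped a normoxia peak, against 35.7% over all genes.

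Peaks found in both lists were mostly wider than those of 1 list, and none of the latter was strong. The median width was 436 bp in normoxia and 423 bp in hypoxia, against 375 and 299 bp over all genes. Shared peaks had medians of 562 bp in normoxia and 586 bp in hypoxia, and peaks of 1 list had 276 and 229 bp. The lists as a whole share this contrast: over all genes the medians were 475 and 467 bp for shared peaks and 277 and 262 bp for peaks of 1 list. The 8 normoxia-only peaks had −log10 q from 2.65 to 8.24, and the 15 hypoxia-only peaks from 1.69 to 8.93. The widest peaks were a normoxia peak of 2005 bp at FAM162A and a hypoxia peak of 2157 bp at VLDLR. In the 20 pairs that overlapped one to one the summits lay a median of 62.5 bp apart, and in 17 of them at most 150 bp apart.

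**Figure D2:**
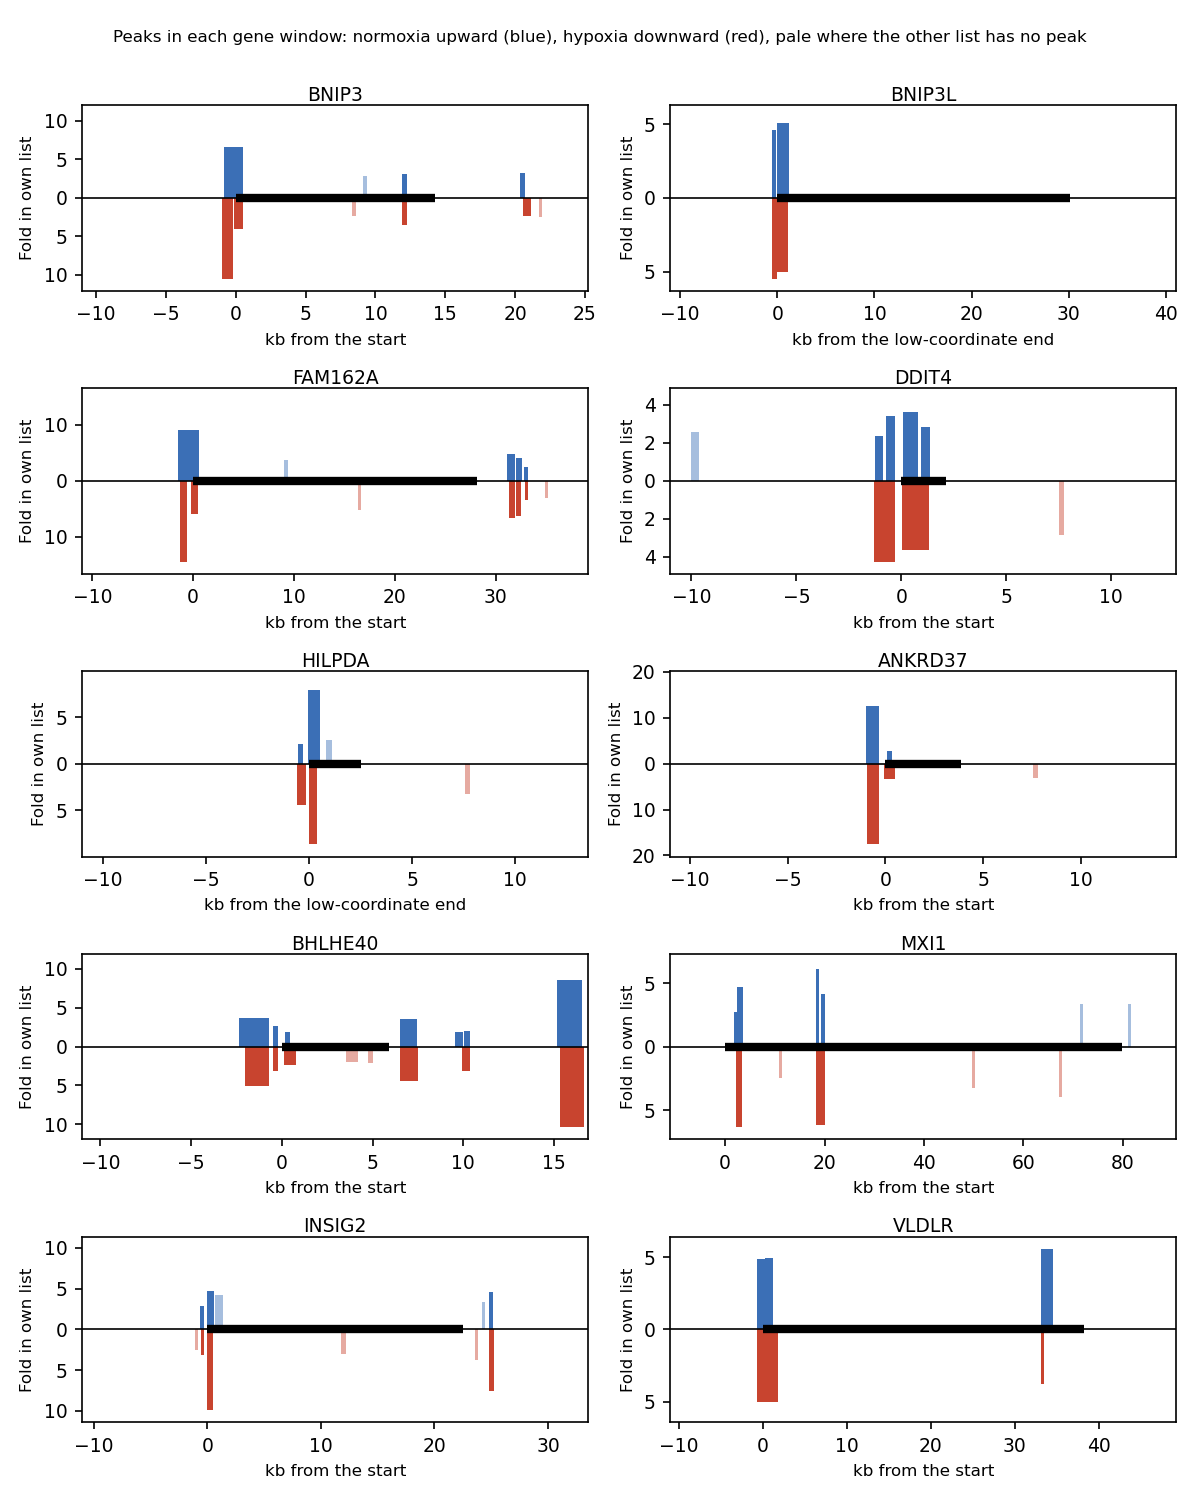
Peaks of each gene window by distance in kb from the start (from the low-coordinate end for BNIP3L and HILPDA), with the authors' fold enrichment in their own list as height, normoxia upward and hypoxia downward, and the gene span as a black bar; the narrowest bars are drawn wider than their peaks. Pale bars, without a peak in the other list, are mostly low and lie away from the start, and every gene but MXI1 has a peak at the plotted start or end in both lists; the mark of MXI1 lies at its internal starts.

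BNIP3 encodes a receptor on the outer mitochondrial membrane that recruits the autophagy machinery (chromosome 10, 131967684 to 131981923, minus strand). Its start lay under 1 normoxia peak of 1389 bp (131981380 to 131982768; fold 6.60, −log10 q 28). In hypoxia 2 peaks stood there, 1 of 596 bp over the start (fold 4.0, 16.9) and 1 of 728 bp upstream (131982153 to 131982880; fold 10.5, −log10 q 101). Between them a stretch of 135 bp, from 229 to 95 bp upstream of the start, had no hypoxia peak. All 6 HIF cores of the promoter, including the CACGTG 134 bp upstream, fell in this stretch, and in normoxia all 6 were inside the peak. The upstream summits were close, at 390 bp in normoxia and 448 bp in hypoxia. The other peaks were weak and included a shared peak inside the gene, 12018 bp from the start in normoxia and 11980 bp in hypoxia, in a part that overlaps the neighbour PPP2R2D.

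BNIP3L, the paralogue of BNIP3 also called NIX, which clears mitochondria from maturing red cells (chromosome 8, 26383054 to 26413127), had the most similar pattern in the 2 lists. Its strand is not in the table used, so positions are given from its low-coordinate end. There were 2 peaks in each list, both there, and none in the rest of the span. The wider one covered 1188 bp in normoxia and 1157 bp in hypoxia, with summits 683 and 672 bp inside the span and folds of 5.11 and 5.06. The narrower one was 322 and 453 bp wide (folds 4.62 and 5.48). The stretch without a peak between them was 177 bp long in normoxia and 18 bp in hypoxia.

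FAM162A, a mitochondrial protein linked to hypoxic cell death (chromosome 3, 122384182 to 122412334, plus strand), had its start under the 2005 bp normoxia peak (fold 9.0, −log10 q 73.2). The summit of this peak lay 1110 bp upstream, 159 bp from the start of the neighbour MIX23. In hypoxia the same stretch held 2 peaks, 1 of 707 bp at the MIX23 start (fold 14.4, −log10 q 103) and 1 of 713 bp over the FAM162A start (fold 5.94, 23.6). The 334 bp between them, from 594 to 261 bp upstream, had no hypoxia peak, and the 4 HIF cores of the FAM162A promoter were inside a peak in both lists. The highest peak of the window thus belongs by position to MIX23. The FAM162A span had 1 further peak in each list, at different places, with −log10 q of 4.31 in normoxia and 8.93 in hypoxia.

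Among the genes of lipid storage, HILPDA encodes a small lipid-droplet protein that inhibits adipose triglyceride lipase (chromosome 7, 128455878 to 128458418). Its highest peak, 235 bp inside the low-coordinate end in normoxia and 208 bp in hypoxia, had folds of 7.97 and 8.69 and widths of 565 and 410 bp. A second peak outside that end was weak in normoxia (fold 2.14, −log10 q 1.57) and strong in hypoxia (4.45, 13.5). The stretch between these peaks was 259 bp long in normoxia and 149 bp in hypoxia. A weaker normoxia peak within the span (−log10 q 3.08) had no hypoxia counterpart.

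VLDLR encodes the receptor for very-low-density lipoprotein, through which cells take up lipid (chromosome 9, 2621787 to 2660056, plus strand). Its start was covered in both lists, by a normoxia peak of 902 bp and a hypoxia peak of 2157 bp (folds 4.92 and 5.03), and the 5 GCGTG cores of its promoter were inside both. A site inside the gene was narrower in hypoxia. A normoxia peak 33871 bp into the gene (2654961 to 2656383) was 1423 bp wide (−log10 q 14.1), and the hypoxia peak that overlapped it was 292 bp wide with 4.50. The pileups at these summits were 33 reads (22.7 to 46.3) in normoxia and 15 (8.40 to 24.7) in hypoxia. The site lies within the span of VLDLR and of the long non-coding gene LOC105375957.

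INSIG2 encodes an endoplasmic reticulum protein that retains the sterol-regulatory SREBP complex (chromosome 2, 118088471 to 118110997, plus strand). The peak over its start was 658 bp wide with a fold of 4.71 in normoxia and 541 bp wide with 9.91 in hypoxia, and the −log10 q were 10.4 and 31.3. An adjoining normoxia peak of 737 bp, with its summit 896 bp downstream of the start, had no hypoxia counterpart (−log10 q 8.24). Both HIF cores of the sequence above lay in the stretch without a peak upstream of the start, from 276 to 15 bp upstream in normoxia and from 272 to 51 bp in hypoxia. A further ACGTG downstream of the start (118088575 to 118088579) was inside a peak in both lists. A shared peak 3′ of the gene, 24978 bp from the start in normoxia and 25006 bp in hypoxia, had folds of 4.54 and 7.49 and was strong in both lists.

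Among the stress and repressor genes, DDIT4 encodes REDD1, an inhibitor of the growth kinase complex mTORC1 (chromosome 10, 72273924 to 72276036, plus strand). Of its 5 normoxia peaks 4 lay in pairs on either side of the start, and each pair overlapped a single hypoxia peak. The upstream hypoxia peak was 1011 bp wide (fold 4.24, −log10 q 37.8) and the downstream one 1289 bp (3.65, 27.2). The start itself had no peak in either list: the bare stretch ran from 318 bp upstream to 97 bp downstream in normoxia (416 bp), and from 306 to 51 bp in hypoxia (358 bp). All 4 HIF cores of the promoter lay in it in both lists. The upstream peaks overlap the antisense gene DDIT4-AS1.

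BHLHE40, a transcriptional repressor of the clock and of differentiation (chromosome 3, 4979437 to 4985323, plus strand), had the most peaks. Its start was also bare, over 400 bp in normoxia and 296 bp in hypoxia, with peaks on both sides. Of the 4 HIF cores, 2 lay in that stretch in both lists, and the other two, which form a CACGTG 245 bp upstream, were inside a peak. The highest peak of the window was not at the start: it lay 15960 bp downstream of the start in normoxia and 15937 bp in hypoxia (folds 8.59 and 10.4, −log10 q 98.8 and 128), beyond the 3′ end and in no annotated gene. Within the gene body 2 hypoxia peaks without normoxia counterpart (−log10 q 7.62 and 7.22) lay between the shared peaks.

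MXI1, a repressor that competes with MYC for its partner MAX (chromosome 10, 110207605 to 110287365, plus strand), was the only gene of the 10 without a peak at a gene end, against 69.3% of all genes that had one in both lists. It has 3 annotated starts in the promoter table, and the mark lay at the later ones. At the second start (110210231) the highest folds were 4.72 in normoxia and 6.36 in hypoxia, and at the last (110225996) 6.08 and 6.20. At each of them 2 normoxia peaks overlapped 1 hypoxia peak, of 1280 bp and 1810 bp. The hypoxia peak at the second start overlapped 59.1% of one normoxia peak and 84.6% of the other. The first start had no peak within 1000 bp in either list and no HIF core in its promoter.

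ANKRD37 is an ankyrin repeat protein gene (chromosome 4, 185396841 to 185400723, plus strand). Its window held the highest fold of the 10 windows, in a peak that overlapped the span of LRP2BP and not that of ANKRD37. This upstream peak was 682 bp wide with a fold of 12.6 in normoxia and 592 bp wide with 17.6 in hypoxia. The summits lay 680 and 677 bp upstream of ANKRD37, closer to an annotated start of LRP2BP (237 and 240 bp). The peak just inside the gene was weak in both lists (folds 2.72 and 3.35, −log10 q 3.66 and 7.66) and measured 264 and 556 bp. The stretch between them was 425 bp long in normoxia, start included, and 295 bp in hypoxia, from 345 to 51 bp upstream. All 3 ACGTG cores, of which 2 form a CACGTG, were in it in both lists.

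**Figure D3:**
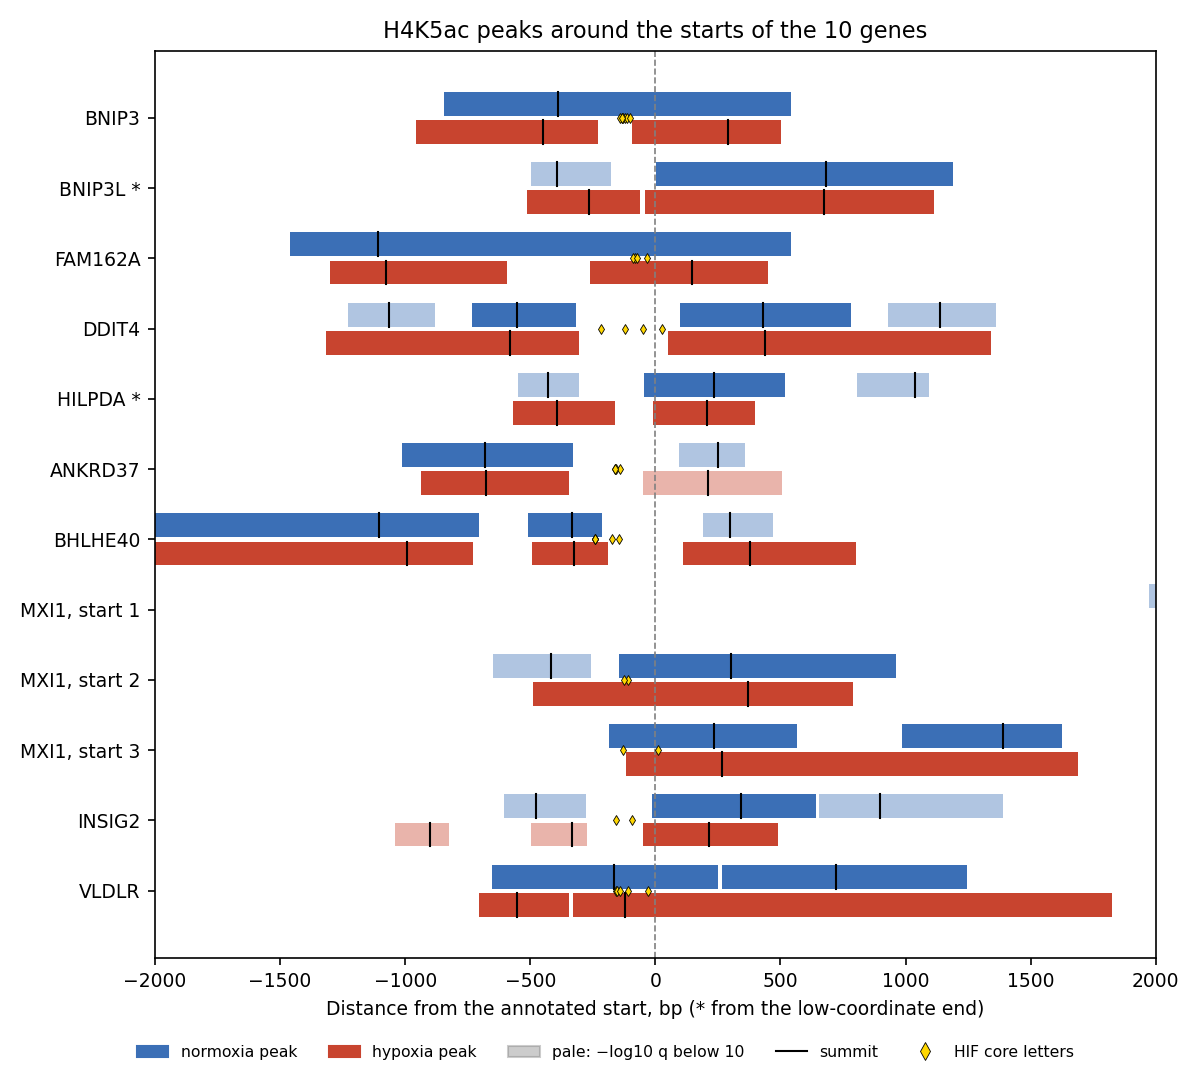
Peaks within 2000 bp of the annotated start (asterisk, of the low-coordinate end) in normoxia (blue) and hypoxia (red), pale where the −log10 q is below 10, with black ticks at summits and yellow diamonds at ACGTG or GCGTG letters. The diamonds of BNIP3 fall in the 135 bp between its 2 hypoxia peaks, those of DDIT4 and ANKRD37 fall in stretches that no peak of either list covers, and those of FAM162A and VLDLR fall under peaks; BNIP3L and HILPDA have no entry in the promoter table.

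Over the 8 genes with a promoter entry, the start was covered by a peak in 4 genes in normoxia and 5 in hypoxia, against 51.5% and 58.4% of 13793 genes. It was bare with a peak on either side within 1000 bp in 3 genes in normoxia (DDIT4, ANKRD37 and BHLHE40) and 2 in hypoxia (DDIT4 and BHLHE40), against 9.95% and 9.66%. MXI1 had no peak within 1000 bp of its first start in either list, against 29.3% and 20.3%, and no gene had a peak on 1 side only, against 9.26% and 11.6%. The bare class was looked at after the positions were seen. All 8 genes had ACGTG or GCGTG in at least 1 promoter, as did 10 of their 11 promoter entries, against 54.7% of 22156 promoters of protein-coding genes. ACGTG alone was in 23.1% of those promoters, GCGTG in 43.0%, and CACGTG, which contains ACGTG on both strands, in 8.34%. BNIP3, ANKRD37 and BHLHE40 had CACGTG. The cores hold a CG. Of the 11 member promoters, all but that of the first MXI1 start (14 CG pairs) had 22 to 49, above the median of 21.0. What part CG content has in the share of promoters with a core was not tested. Of the 33 core sites, 11 lay outside peaks in normoxia and 18 (54.5%) in hypoxia. Over all promoters with a peak within 1000 bp the shares were 35.3% and 34.4%, and 37.3% and 38.9% of all their bases lay outside. The 7 sites that were inside a peak in normoxia alone were the 6 of BNIP3 and 1 of MXI1. These matches describe letters and peak edges only.

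The reads over the summits set the genes apart further. The pileup, the number of extended reads over a summit, was recovered from the deposited fold and p-value taking the fold as (pileup + 1) / (background + 1). Pileup scales with the depth, fragment length and enrichment of a library, so a member's ratio is set beside the same ratio in all genes. For the strongest overlapping pair of peaks at a gene end, the median hypoxia to normoxia ratio over 13676 genes was 1.42 (quartiles 1.21 and 1.65), and 90.8% of them had a ratio above 1, as all 9 members with such a pair did. The ratios of 6 of these 9 were above the median of all genes. That median is not the same at every normoxia pileup. Genes within 20% of the INSIG2 normoxia pileup had a median of 1.62, above the INSIG2 ratio of 1.59. For VLDLR the median of such genes was 1.56, close to its ratio of 1.58.

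BNIP3 had the largest ratio, with 59 reads in normoxia and 156 in hypoxia (2.64, interval 1.95 to 3.63), at or above 99.0% of genes. That hypoxia peak is the upstream one. The hypoxia peak over the start overlaps the same normoxia peak and had 60 reads (1.02, 0.698 to 1.48). Genes within 20% of the BNIP3 normoxia pileup had a median of 1.46, and the 6 genes within 1000000 bp of BNIP3 had 1.25. The local background under the BNIP3 pair also differed, at 8.09 and 13.9 reads, and this neighbourhood had the highest ratio of peak numbers, as given above. BHLHE40 had 97 and 197 reads (2.03, 1.58 to 2.62), at or above 93.0% of genes, over backgrounds of 25.9 and 38.0. At its downstream site the pileups were closer, at 178 and 202 reads (1.13, 0.923 to 1.40). DDIT4 had 57 and 110 reads (1.93, 1.39 to 2.71), at or above 90.0% of genes, and its background was 15.0 and 29.4. Pileup and background of DDIT4 differed by nearly the same factor (1.93 and 1.96), and its folds were 3.63 and 3.65. That pair lies downstream of the DDIT4 start. The strong pair upstream had 54 and 127 reads (2.35, 1.70 to 3.30) over backgrounds of 15.1 and 29.2 (ratio 1.93), with folds of 3.42 and 4.24. Over all genes the median ratio of the backgrounds was 1.09. What part the background has in these ratios was not tested.

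ANKRD37 with 115 and 183 reads (1.59, 1.25 to 2.03), INSIG2 with 29 and 46 (1.59, 0.975 to 2.62) and VLDLR with 33 and 52 (1.58, 1.000 to 2.52) were near the middle of all genes, at or above 70.0%, 69.6% and 68.5% of them. Among genes within 20% of their own normoxia pileup, these 3 ratios stood at percentiles 79.3, 47.7 and 50.8. The ANKRD37 value is measured 237 and 240 bp from an annotated start of LRP2BP. The weak peak just inside ANKRD37 had 24 reads in normoxia and 34 in hypoxia. INSIG2 and VLDLR differed in background: 5.37 and 3.74 reads at INSIG2, and 5.90 and 9.59 at VLDLR. The folds, each in its own list, were 4.71 and 9.91 at INSIG2 and 4.92 and 5.01 at VLDLR. HILPDA with 73 and 83 reads (1.14, 0.820 to 1.58), BNIP3L with 27 and 29 (1.07, 0.614 to 1.89) and FAM162A with 126 and 131 (1.04, 0.808 to 1.34) had ratios at or above only 17.7%, 12.7% and 10.8% of genes. The FAM162A value is measured at the start of MIX23, 159 and 126 bp from it, and the hypoxia peak over the FAM162A start itself had 54 reads. The interval of each of these 3 ratios includes 1, and those of HILPDA and BNIP3L also include the all-gene median of 1.42. By point value the 2 mitophagy receptors stood near opposite ends of the distribution, but counting error leaves the place of BNIP3L unresolved. The BNIP3L interval (0.614 to 1.89) lies below that of the upstream BNIP3 pair (1.95 to 3.63). It overlaps that of the pair over the BNIP3 start (0.698 to 1.48). All 10 genes within 1000000 bp of BNIP3L had a ratio at or above its own. At the internal starts of MXI1 the summits had 66 reads in normoxia and 86 in hypoxia (second start) and 59 and 71 (last start).

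**Figure D4:**
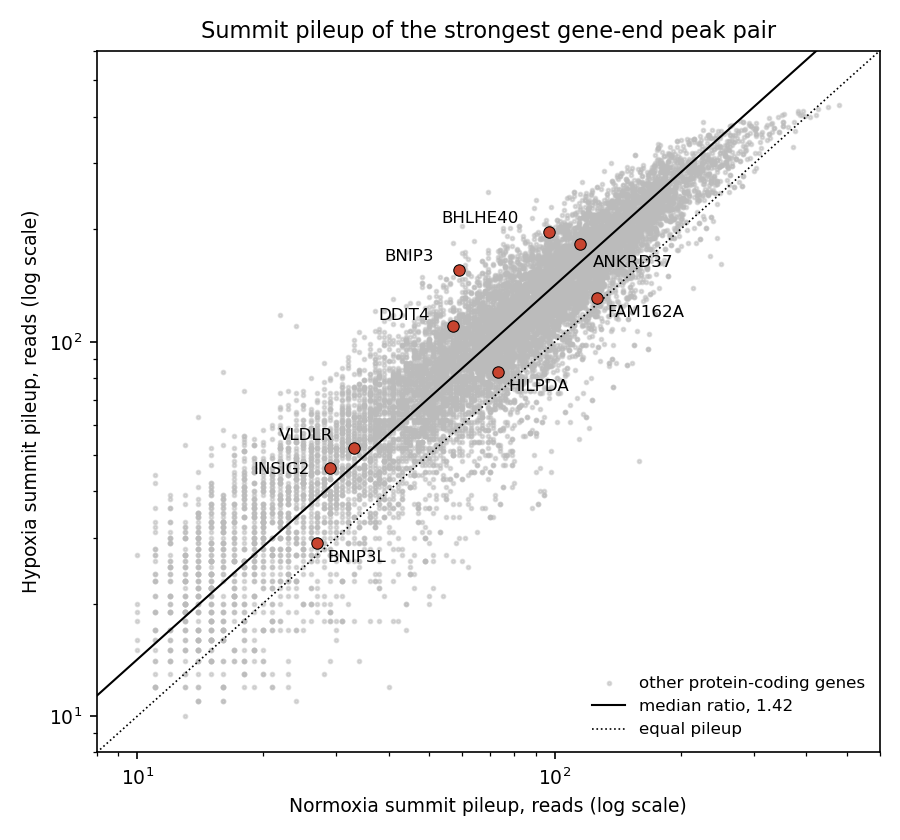
Summit pileup in reads of the strongest overlapping peak pair at a gene end, normoxia against hypoxia on log axes, for 13676 protein-coding genes (grey) and 9 of the 10 genes (red), with the median ratio of 1.42 (solid) and equality (dotted). BNIP3, BHLHE40 and DDIT4 lie above the solid line in the upper part of the cloud, and FAM162A (its pair lies at the MIX23 start), BNIP3L and HILPDA lie near the dotted line. The ANKRD37 pair lies nearer to a start of LRP2BP, and the BNIP3 pair is the one with the upstream hypoxia peak.

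Other genes of the same pathways, from lists written for this work, had more hypoxia than normoxia peaks in most cases. Of 14 mitophagy genes 12 had more hypoxia peaks, with 65 normoxia and 100 hypoxia peaks in all. All 14 were marked at a gene end in both lists, against 69.3% of all genes. CALCOCO2, an autophagy receptor, had 3 and 8 peaks. GABARAPL1, a protein of the autophagosome membrane, had 4 and 8, and ULK1, the kinase that starts autophagy, had 6 and 10. Of 17 lipid-droplet genes 14 had more hypoxia peaks (59 and 102 in all). Of these 17 genes, 10 were marked at a gene end in both lists (69.3% of all genes), 3 in hypoxia only and 4 in neither. LPIN1, a phosphatidate phosphatase, had 13 and 26 peaks, and CIDEA, a droplet-fusion protein, 4 and 11. All 9 genes of sterol control and lipoprotein uptake had more hypoxia peaks (67 and 114), among them SREBF2, a sterol-regulatory transcription factor, with 9 and 22 and LRP8, a relative of VLDLR, with 7 and 16.

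Of 11 genes of mTORC1 and stress signalling 10 had more hypoxia peaks (92 and 228), and RPTOR, an mTORC1 subunit, had 41 and 132, and MTOR, its kinase, 6 and 16. Of 8 genes of the MAX network and related repressors 5 had more (58 and 97), with 10 and 30 in MGA and 10 and 28 in MAX. The background is 79.0% of all genes, so each of these shares except the last is at or above it, and RPTOR alone holds 132 of the 228 hypoxia peaks of its list. A strong hypoxia peak without a normoxia counterpart was found in 0 of 14 mitophagy genes, 5 of 17 lipid-droplet genes (LPIN1, DGAT2, PLIN2, PLIN3 and PNPLA2) and 1 of 9 sterol genes (INSIG1). It was found in 2 of 11 mTORC1 genes (RPTOR and RHEB) and 2 of 8 MAX network genes (MAX and MLX), and over all genes in 15.6%. These names, other than LPIN1, RPTOR and MAX, were chosen after their values were seen. The median gene-end pileup ratios of the 5 lists ran from 1.40 to 1.51, close to the 1.42 of all genes.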

How the data were processed

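The 2 H4K5ac ChIP-seq libraries of FaDu cells were read as 75 bp single ends, per the labels' protocols, and each came as 1 deposited peak list. The authors used MACS2 and SICER on hg38, per the submitters' processing notes; their versions and settings, and whether a control was used, are not given in the sources read. Per peak the deposited lists hold an integer score (10 times the −log10 p-value, rounded down), a fold enrichment ratio, and p-value and q-value as −log10, with the summit position; the score was not used further. Folds are the authors' values, each relative to its own library.

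Peak positions are 1-based on hg38. Gene spans and promoters came from RefSeq tables of GRCh38.p14, a patch release of hg38; all 10 genes matched by symbol and 8 had promoter entries. Exons, introns and UTRs were not distinguished. Overlap meant at least 1 bp, and a gene end 1000 bp on either side of an end of the span. Pileup and background were solved from fold and −log10 p with whole pileups; the recomputed −log10 p was within 0.01 of the deposited value for all normoxia peaks and all but 2 of 258195 hypoxia peaks. The genome-wide lowest background was 3.13 reads in normoxia and 3.24 in hypoxia; read totals are not stated in those sources. Scripts (Python 3.11.15, pandas 2.3.3, SciPy 1.17.1) were tested on simulated peaks. Alternatives changed the window, list length, q-value, overlap, stitching and gene-end distance.

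The 10 genes and the related lists were chosen with earlier results of these data known. All 10 were named whatever their values, and of each related list the 2 genes with the largest difference in peak number, with ties kept. One gene of the mitophagy list is not reported here and is left out of its counts.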

Additional observations from a re-analysis of the deposited data

How the results depend on the processing

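Of 42 recomputed values, 31 stayed within the interval or within 1.5 times the count. The ratio of peak numbers turned below 1 in gene spans alone (0.955) and with lists of equal length (0.762), and both intervals include 1. Genes with more hypoxia peaks numbered 1 in gene spans (63.5% of all genes), 10 with 50000 bp on either side (93.0%) and 2 with equal lists (34.6%). Where both lists were limited to −log10 q of 10 or more, 95.2% of normoxia and 84.0% of hypoxia peaks overlapped, and median widths were 768 and 694 bp. With equal lists 87.5% of hypoxia peaks overlapped. Overlap and width over all genes were not computed under these settings, so these values have no background beside them. Strength at −log10 q of 5 or more gave 3 genes with a hypoxia peak that no normoxia peak overlaps, against 0 (60.5% and 15.6% of all genes). For the count of 3 no interval was computed. The cause was not tested. No paired analysis was possible because each condition had 1 library, and none could be left out. With so few peaks per gene, no difference in peak number of a single gene exceeded its counting interval.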

Other observations

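Beyond the genes themselves, their windows held marked starts of neighbours. At the 3′ side of FAM162A, WDR5B and the non-coding gene WDR5B-DT had a cluster of 3 peaks in normoxia and 4 in hypoxia. At the WDR5B start the fold was 4.78 in normoxia (52 reads over a background of 10.1) against 6.65 in hypoxia (49 over 6.51). At the WDR5B-DT start it was 4.10 (45 reads over 10.2) against 6.30 (48 over 6.77). About as many reads thus gave higher folds in hypoxia there, as at the FAM162A and MIX23 pair, where 126 and 131 reads stood over 13.1 and 8.17.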
